A study of Arabidopsis thaliana with 18 samples.

Results

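This account covers the nuclear genes for the photosystems, their light-harvesting antennas and the Rubisco small subunit in Arabidopsis thaliana roots. The set was defined by locus code and holds 39 of the 34218 genes in the deposited read count table: 4 LHCA genes of the photosystem I antenna, 8 genes of the major photosystem II antenna (LHCB1 to LHCB3), 5 of the minor antenna (LHCB4 to LHCB6), 4 RBCS genes, 10 photosystem I subunits (PSA) and 8 photosystem II subunits (PSB). Of these, 33 passed the filter on low counts that left 20869 genes for testing.

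These genes are textbook targets of light and plastid signals. The antenna proteins bind chlorophyll and pass absorbed light energy to the photosystems, the PSA and PSB subunits build and dock the electron transfer complexes, and the small subunit is the nuclear-encoded component of the carbon-fixing enzyme. Roots are mostly non-photosynthetic, but root plastids can green in the light, and GLK and GATA transcription factors promote that greening while abscisic acid (ABA), the hormone of water stress, is known to repress many photosynthesis genes in shoots.

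The study compared 6 groups of 3 libraries: wild type Col-0, the triple mutant vnd1 vnd2 vnd3 (here vnd123) and the single mutant vnd7, each after 8 h on 1 µM ABA or on mock plates. VND genes encode NAC transcription factors that switch on vessel differentiation in xylem. All plants were 5 days old and light-grown (16 h light), each library pooled 50 to 100 seedlings, and RNA came from roots, given by the submitters as 1 cm long; the alleles are not named, and the cells in which the VND genes act are a small part of such a sample. Levels are CPM (a gene's reads scaled to a common library size), not divided by gene length, so they compare libraries and not genes. Changes are log2 fold changes ± SE from edgeR's quasi-likelihood test over all 18 libraries, and adjusted p is its Benjamini-Hochberg value over the 20869 genes, called under 0.05. Replicates are separate seedling pools by their labels; nothing says that they came from separate sowings. Bulk RNA cannot tell fewer cells of a type from less RNA per cell.

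Library totals ran from 38325491 to 58705802 reads. The mutated genes followed their labels: none of VND1, VND2 and VND3 exceeded 1.66 CPM in a vnd123 library, each was called lower than in Col-0 under both treatments, and VND7 had 0.227 to 0.605 CPM in vnd7 mock libraries against 2.13 to 2.55 in Col-0 mock. Of 13 leaf and shoot markers, FIL, YAB3, YAB5, MUTE, FAMA and EPF1 had no read in any of the 18 libraries. YAB2, KAT1, EPF2 and STM had 1, 2, 8 and 19 reads in all. SPCH (259 reads), TMM (215) and MYB60 (122) passed the filter on low counts. SPCH and TMM had reads in all 18 libraries, and MYB60 had none in 4. The list summed to 0.279 to 1.01 CPM. Under mock and ABA it averaged 0.843 ± 0.0516 CPM (SD, n = 3) and 0.628 ± 0.335 in Col-0, 0.858 ± 0.232 and 0.584 ± 0.227 in vnd123, and 0.647 ± 0.225 and 0.696 ± 0.142 in vnd7, with the groups of a genotype overlapping in Col-0, vnd123 and vnd7 alike. All 9 root markers passed the filter, and their sum, mostly PYK10, was 8709 to 9493 CPM in Col-0 on mock plates and 6053 to 6712 on ABA. The part of either list in the results below was not tested.

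The 39 genes took 0.0308% to 0.0738% of a library's reads. Their summed level in Col-0 was 633 ± 90.0 CPM (SD, n = 3) on mock plates and 536 ± 80.5 on ABA, and it was 508 ± 77.2 and 362 ± 42.2 in vnd123, and 499 ± 94.0 and 437 ± 84.1 in vnd7. The vnd123 ABA group was the lowest of the 6. Spread within a group was ordered by library: the library numbered 3 held the lowest sum in each of the 6 groups, and its members lay a median 0.16 to 0.32 log2 units below their group means, while the same median over all genes was near 0. The cause of this order was not tested. Members called for ABA in Col-0, vnd123 and vnd7 were 12, 15 and 10 with all libraries. Without the 6 libraries numbered 3 these counts were 15, 15 and 11. With the replicate number as a block in the fit they were 16, 19 and 16. Over all genes tested, the ABA calls were 6532, 6757 and 6942 with all libraries and 5117, 4804 and 5358 without those 6. They were 6661, 6894 and 7097 with the block. That block gave 5 and 17 members for vnd123 against Col-0 in mock and under ABA, against 2 and 7 without it. Over all genes it gave 135 and 337, against 127 and 227.

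**Figure D1:**
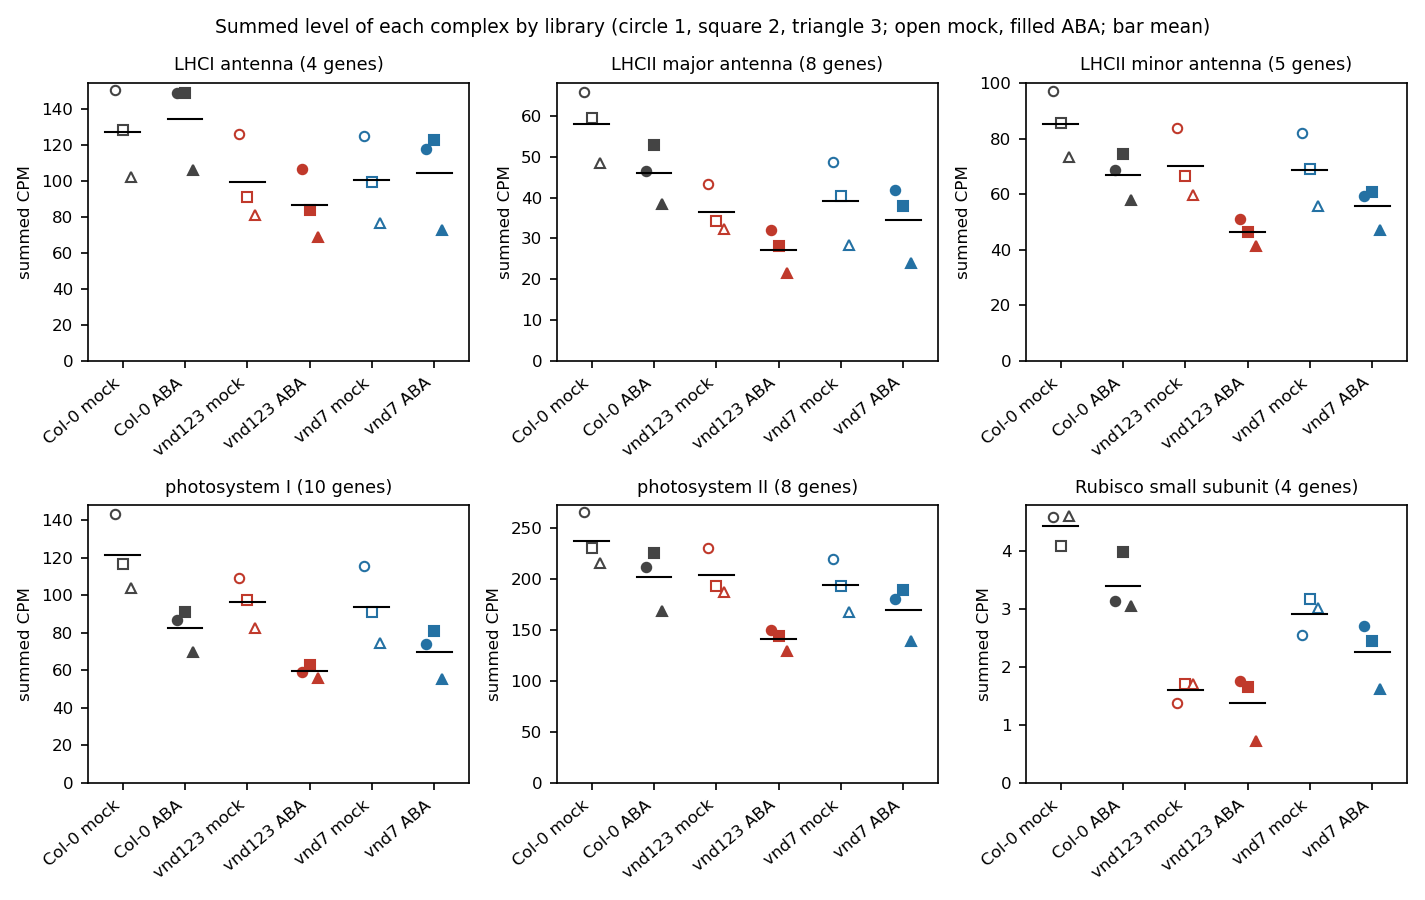
Summed level of each complex, in CPM, for every library (open symbols mock, filled symbols ABA, bars group means, symbol shape the replicate number). In Col-0 the photosystem I sums do not overlap, with 104 CPM in the lowest mock library and 91.3 in the highest ABA library, and the Rubisco sum is at 1.38 to 1.71 CPM in vnd123 mock against 4.09 to 4.59 in Col-0 mock.

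Not every member was measurable. LHCB1.5, RBCS1B and RBCS2B had 0 reads in all 18 libraries, RBCS3B had 2, LHCB2.2 had 11 and LHCB1.1 had 62, and these 6 entered no test. In the RefSeq TAIR10.1 annotation, matched by locus code since no label or header names the authors' build, the whole length of LHCB1.5 (1045 bases) lies under an opposite-strand gene, and every stretch of 75 bases of its transcript also occurs in another gene. Reads there could not be assigned by a kit that does not mark strand, so a count of 0 says little about LHCB1.5. For RBCS1B, RBCS2B and RBCS3B, 9.01%, 4.99% and 15.0% of such stretches were shared, which leaves most of each transcript countable. The highest level of LHCB1.1 in a single library was 0.270 CPM. Among tested members, opposite-strand genes covered 479 of 780 bases of PSAG, 436 of 1304 bases of PSAE1 and 358 of 1419 bases of LHCB6. They also covered 174 of 871 bases of PSAH2 and 186 of 1404 bases of LHCB3. The counts of these 5 members may lack reads that could not be assigned there, or include reads of the other gene.

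ABA lowered a minority of the tested members in wild type and raised a few. In Col-0, 9 of 33 members fell (27.3%) and 3 rose (9.09%), where 13.4% of all genes tested were called lower and 17.9% higher. The members that fell were LHCB3, LHCB4.2 and LHCB5 of the antenna, PSAD1, PSAF and PSAN of photosystem I, and PSBP1, PSBQ2 and PSBX of photosystem II; LHCB1.4, LHCB4.3 and PSBO2 rose. Of these, LHCB1.4 passed the filter on low counts through ABA libraries alone. The median log2 change of the 33 was -0.24, against 0.00306 over all genes. In vnd123, 15 members fell (45.5%) and 0 rose, where 13.8% of genes were called lower and 18.6% higher. There, 3 members had an unadjusted p under 0.05 on the higher side. DESeq2 called 15 members lower and 1 higher (LHCB1.4), of 3297 and 3824 genes. A replicate block called 17 lower and 2 higher (LHCB2.1 and PSBO2), of 2926 and 3968 genes. In vnd7, 7 fell (21.2%) and 3 rose, where 14.5% and 18.8% of genes did. PSAF, PSBX, PSAD1, PSBQ2, LHCB3 and PSAN were called lower in all 3 genotypes, and 18 members were called in at least 1. Mock and ABA libraries did not overlap, with ABA lower, for 12, 17 and 6 members in Col-0, vnd123 and vnd7. With ABA higher they did not for 4, 2 and 3. Of all genes, 19.5%, 20.1% and 20.5% were apart with ABA lower, and 23%, 24.5% and 23.9% with ABA higher. The vnd7 share of members apart on the lower side was near that of all genes. With unscaled library sizes the calls over all genes turned from 57.3% higher to 42.8% higher in Col-0 (57.3% to 44.6% in vnd123, 56.4% to 40.7% in vnd7), and members called were 3 higher and 10 lower in Col-0, 0 and 15 in vnd123 and 3 and 10 in vnd7, against backgrounds of 19.5%, 18.4% and 21.3% lower.

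**Figure D2:**
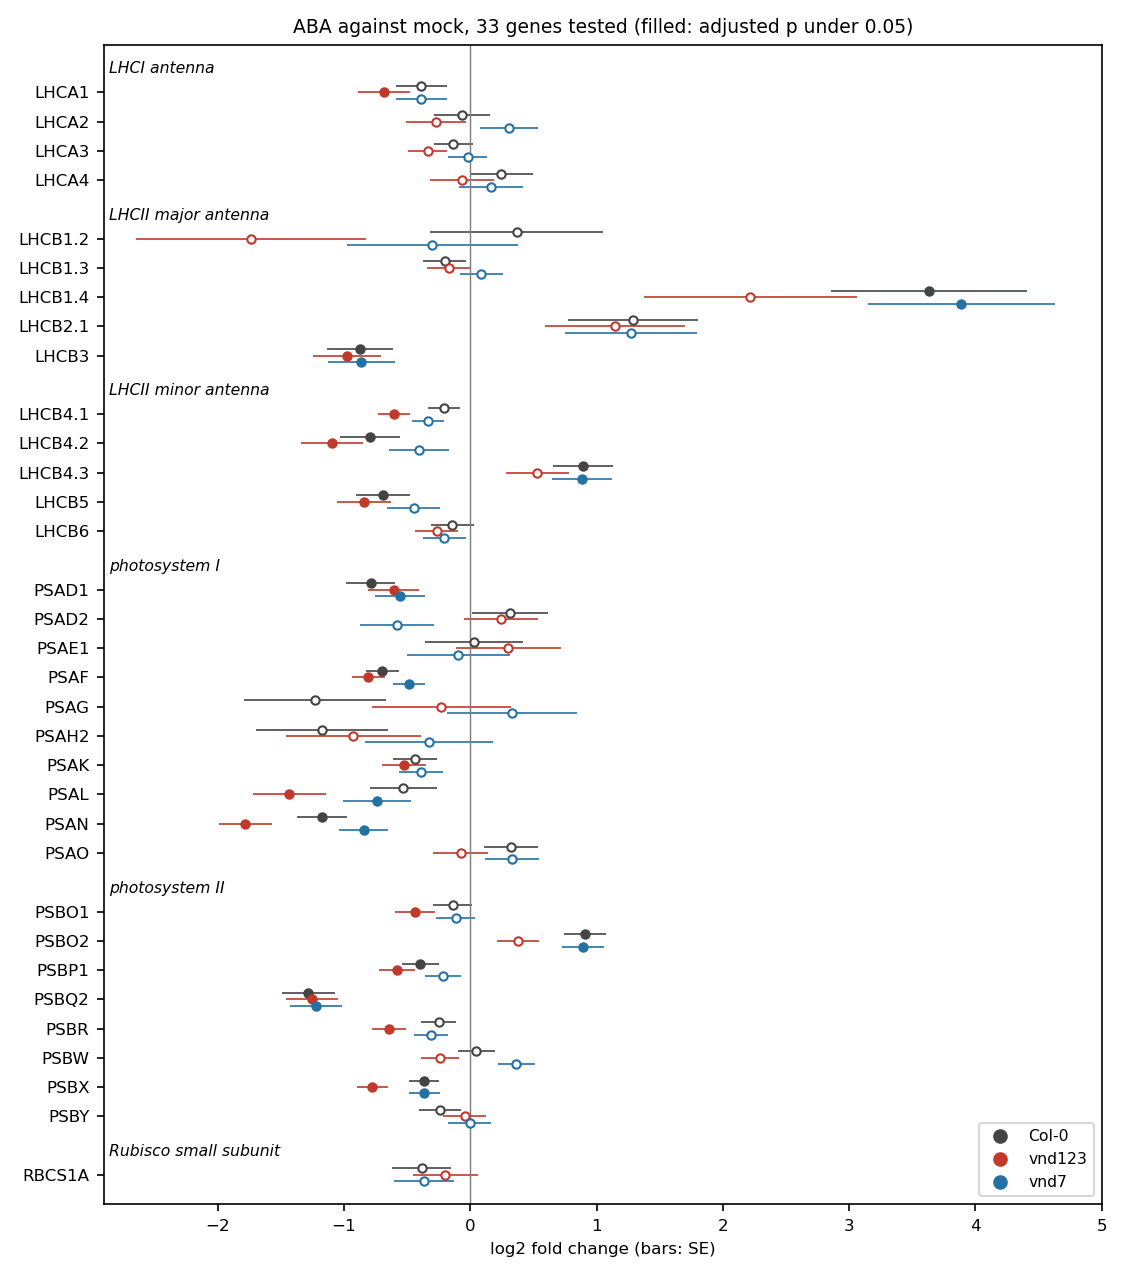
Log2 fold change of ABA against mock for the 33 tested members, by complex and genotype (bars SE, filled points adjusted p under 0.05). Most points lie left of 0, with PSAN in vnd123 at -1.78 the lowest called value and LHCB1.4 in vnd7 at 3.89 the highest. LHCB1.4 passed the filter on low counts through ABA libraries alone.

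Upstream sequences of 5 of these members are shown as examples of genes called in opposite directions, chosen with their motifs and changes known. Each is the last 150 bases before the annotated start, from RefSeq TAIR10.1, read 5′ to 3′ on the gene's strand. Capitals mark the G-box CACGTG, the ABA element core ACGTG (also part of each CACGTG, and printed as CACGT where it is on the other strand), the I-box core GATAAG and CCAATC.
PSBQ2 (chr4:2673244-2673393, minus strand): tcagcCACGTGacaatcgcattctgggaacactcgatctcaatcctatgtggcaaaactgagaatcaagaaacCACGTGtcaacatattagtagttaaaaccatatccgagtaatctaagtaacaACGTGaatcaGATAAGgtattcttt
PSAF (chr1:11216142-11216291, minus strand): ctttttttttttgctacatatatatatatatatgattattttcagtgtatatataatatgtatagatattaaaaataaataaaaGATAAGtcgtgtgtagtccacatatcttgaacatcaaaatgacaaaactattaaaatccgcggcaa
LHCB4.2 (chr3:2717407-2717556, plus strand): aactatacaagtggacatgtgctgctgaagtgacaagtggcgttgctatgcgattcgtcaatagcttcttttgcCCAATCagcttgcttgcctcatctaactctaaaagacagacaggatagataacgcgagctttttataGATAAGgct
LHCB4.3 (chr2:16745478-16745627, plus strand): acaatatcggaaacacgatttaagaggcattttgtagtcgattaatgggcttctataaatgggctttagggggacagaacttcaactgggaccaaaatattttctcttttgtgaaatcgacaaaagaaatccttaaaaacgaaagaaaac
LHCB1.4 (chr2:14524457-14524606, plus strand): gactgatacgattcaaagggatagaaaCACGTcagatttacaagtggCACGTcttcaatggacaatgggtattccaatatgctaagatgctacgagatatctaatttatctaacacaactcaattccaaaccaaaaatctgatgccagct
PSBQ2, which fell, holds 2 G-boxes, and LHCB4.2, which fell in 2 of the 3 genotypes, holds CCAATC and GATAAG. LHCB1.4, which rose in Col-0 and vnd7, holds ACGTG without a G-box in this window, and LHCB4.3 holds none of the 4 motifs there. Other genes that fell hold no motif: LHCB3, PSAN and PSBX, called lower in all 3 genotypes, and LHCB5, PSBP1 and PSAL, called lower in some, hold none of the 4 in the 250 bases upstream. LHCA4, LHCB6 and PSAH2 hold a G-box there, and the main fit called them in no ABA comparison. PSBO2, which rose in Col-0 and vnd7, and PSBR, which fell in vnd123, both hold ACGTG without a G-box.

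Over the 250 bases upstream, on both strands, the G-box occurred in 6 of the 39 members (15.4%) and in 6.49% of 27443 protein-coding promoters. GATAAG occurred in 10 members (25.6%) and in 12.3% of promoters, CCAATC in 10 members (25.6%) and 10.2% of promoters, and ACGTG in 12 members (30.8%) and 22.9% of promoters. These are letter matches, not binding sites. No test was made of them, and members of a gene family share sequence.

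In photosystem I, 3 of 10 genes fell under ABA in Col-0 (30%), 5 in vnd123 (50%) and 4 in vnd7 (40%), and 0 rose. Of all genes, 13.4%, 13.8% and 14.5% were called lower, and 17.9%, 18.6% and 18.8% higher. PSAN (AT5G64040), a lumenal subunit on the side where plastocyanin docks, measured 13.3, 9.40 and 9.14 CPM in Col-0 mock libraries 1, 2 and 3 and 4.84, 4.62 and 4.67 under ABA. In vnd123 its levels were 11.2, 9.45 and 7.64 in mock and 2.74, 2.73 and 2.76 under ABA, and in vnd7 they were 11.5, 7.56 and 7.14 and 4.89, 5.94 and 3.74. Every ABA library lay below every mock library of its genotype, and PSAN fell, with log2 changes of -1.17 ± 0.20 in Col-0, -1.78 ± 0.21 in vnd123 and -0.84 ± 0.20 in vnd7 (adjusted p = 0.000108, 1.27e-06 and 0.00209).

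PSAF (AT1G31330), the plastocyanin-docking subunit with the most reads of the photosystem I genes, measured 47.2, 40.3 and 36.8 CPM in Col-0 mock and 25.4, 28.4 and 23.0 under ABA. Its levels were 38.2, 34.5 and 31.9 and then 19.1, 20.9 and 19.8 in vnd123, and 37.9, 33.7 and 28.0 and then 25.2, 27.1 and 18.9 in vnd7. Again mock and ABA did not overlap within a genotype, and PSAF fell, with log2 changes of -0.70 ± 0.13, -0.81 ± 0.13 and -0.48 ± 0.13 (adjusted p = 0.000293, 7.02e-05 and 0.00631). PSAD1 (AT4G02770), a stromal subunit that docks ferredoxin, measured 30.8, 24.7 and 22.4 CPM in Col-0 mock and 16.4, 17.2 and 11.5 under ABA. It was at 19.0, 17.4 and 14.5 and 12.0, 12.0 and 9.35 in vnd123 and at 22.1, 16.1 and 11.9 and 12.7, 12.3 and 9.12 in vnd7. The groups were apart in Col-0 and vnd123 and overlapped in vnd7, and its log2 changes were -0.79 ± 0.20, -0.61 ± 0.20 and -0.55 ± 0.20 (adjusted p = 0.00397, 0.0249 and 0.0368). The vnd123 call ended without ABA library 3 or mock library 1 or 2, and the vnd7 call without ABA library 3 or mock library 1 or 2 or with only the groups compared (adjusted p up to 0.103 and 0.263).

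PSAL (AT4G12800), which with PSAH helps LHCII dock to photosystem I, was at 9.44, 7.55 and 4.27 CPM in Col-0 mock and 5.22, 6.19 and 3.36 under ABA. In vnd123 it went from 5.42, 6.28 and 3.88 to 1.55, 2.01 and 2.25 CPM, and in vnd7 from 7.01, 6.35 and 4.68 to 3.60, 4.31 and 2.91. It fell in vnd123 with a log2 change of -1.43 ± 0.29 (adjusted p = 0.00063) and in vnd7 with -0.74 ± 0.27 (0.0401, a call lost without ABA library 1 or 3 or mock library 1 or 2), and its change in Col-0 was -0.53 ± 0.27 (adjusted p = 0.146). PSAK, which joins the antenna to the core, fell in vnd123 with a log2 change of -0.53 ± 0.18 (adjusted p = 0.0268), a call that leaving out any of 4 single libraries ended (up to 0.123). The main fit did not call PSAK in Col-0 or vnd7, but some alternatives called it lower. In Col-0 these included DESeq2 (log2 -0.45 ± 0.18, adjusted p = 0.0366), a replicate block (0.0114) and only the groups compared (0.00996). In vnd7 they included a replicate block (0.0196) and unscaled library sizes (0.0339). The other 5 subunits, PSAD2, PSAE1, PSAG, PSAH2 and PSAO, passed in no genotype, with changes from -1.23 ± 0.56 (PSAG in Col-0) to 0.33 ± 0.51 (PSAG in vnd7).

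In photosystem II, 3 of 8 genes fell and 1 rose in Col-0, 5 and 0 in vnd123, and 2 and 1 in vnd7. Those that fell were 37.5%, 62.5% and 25% of the 8, against 13.4%, 13.8% and 14.5% of all genes. Those that rose were 12.5% in Col-0 and in vnd7, against 17.9% and 18.8% of all genes. Among the 8 are the extrinsic proteins that shield the oxygen-evolving manganese cluster. PSBQ2 (AT4G05180) measured 12.4, 10.06 and 9.87 CPM in Col-0 mock and 4.84, 4.298 and 4.15 under ABA. It went from 12.2, 9.87 and 7.07 to 4.68, 4.35 and 3.12 in vnd123 and from 10.7, 8.78 and 7.85 to 4.84, 3.997 and 2.82 in vnd7. No ABA library reached the lowest mock library of its genotype, and the log2 changes were close to one another at -1.28 ± 0.21, -1.25 ± 0.21 and -1.22 ± 0.20 (adjusted p = 6.1e-05, 8.22e-05 and 9.1e-05).

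PSBO2 (AT3G50820), one of the pair of genes for the manganese-stabilising protein, moved the other way. It measured 9.15, 6.49 and 5.79 CPM in Col-0 mock and 13.4, 15.7 and 11.04 under ABA, a rise of log2 0.91 ± 0.17, adjusted p = 0.000278. In vnd7 it went from 7.57, 6.75 and 6.39 to 14.4, 13.5 and 10.7, a rise of log2 0.90 ± 0.17, adjusted p = 0.000269, again with no overlap. In vnd123 mock and ABA libraries lay at 9.03, 8.08 and 7.13 and at 11.8, 10.7 and 8.93, which overlapped, and the change of 0.38 ± 0.17 did not pass (adjusted p = 0.093). A replicate block called PSBO2 higher there (log2 0.37 ± 0.11, adjusted p = 0.0148). The difference between the vnd123 and Col-0 responses, -0.53 ± 0.24, did not pass either (adjusted p = 1). PSBO1 (AT5G66570), its partner gene, was at 46.1, 40.05 and 39.2 CPM in Col-0 mock and 40.3, 44.2 and 29.3 under ABA and passed only in vnd123 (log2 -0.44 ± 0.16, adjusted p = 0.0371), a call ended by leaving out ABA library 2 or 3 or mock library 1 or 2.

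PSBX (AT2G06520), a small membrane subunit, measured 21.2, 22.6 and 21.5 CPM in Col-0 mock and 16.5, 17.7 and 16.4 under ABA. Its vnd123 libraries went from 20.9, 18.9 and 17.9 to 10.4, 11.4 and 12.0 and its vnd7 libraries from 19.5, 18 and 15.6 to 14.0, 16.6 and 10.7. Levels overlapped in vnd7 alone, and the changes were -0.37 ± 0.12, -0.77 ± 0.12 and -0.36 ± 0.12 (adjusted p = 0.0261, 5.59e-05 and 0.0258); the Col-0 call ended without ABA library 1 or 3 or mock library 2 or 3, and the vnd7 call without ABA library 1 or 3, mock library 1 or 2 or the 6 libraries numbered 3, or with only the groups compared (up to 0.16). PSBR (AT1G79040), a subunit that stabilises the oxygen-evolving proteins and took the most reads of the photosystem II genes, was at 107, 94.7 and 84.0 CPM in Col-0 mock and 86.1, 92.7 and 61.3 under ABA. It was at 97.9, 79.2 and 81.0 and 57.7, 56.1 and 51.5 in vnd123 and at 92.2, 80.9 and 72.1 and 67.1, 74.0 and 56.7 in vnd7, and fell in vnd123 (log2 -0.64 ± 0.14, adjusted p = 0.00115). A replicate block also called PSBR lower in Col-0 and vnd7 (adjusted p = 0.0394 and 0.014), and unscaled library sizes did in vnd7 (0.0256). PSBP1, another extrinsic protein, fell in Col-0 with a log2 change of -0.39 ± 0.14 (adjusted p = 0.0423, lost without any of 4 single libraries, up to 0.213) and in vnd123 with -0.58 ± 0.15 (adjusted p = 0.00417). PSBW and PSBY passed in no genotype, with changes of -0.24 ± 0.17 to 0.37 ± 0.15.

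In the photosystem II antenna, 3 of the 10 tested genes fell and 2 rose in Col-0, 4 fell and 0 rose in vnd123, and 1 fell and 2 rose in vnd7. Of all genes, 13.4%, 13.8% and 14.5% were called lower, and 17.9%, 18.6% and 18.8% higher. The shares of the 10 that rose in Col-0 and vnd7 were near these, and the share that fell in vnd7 was below. LHCB3 (AT5G54270), a component of the LHCII trimers, measured 29.1, 26.3 and 15.7 CPM in Col-0 mock and 16.1, 12.3 and 10.4 under ABA. It was at 20.9, 15.9 and 13.3 and 9.95, 8.73 and 6.71 in vnd123, and at 21.3, 19.5 and 12.5 and 11.8, 11.4 and 6.05 in vnd7. Mock library 3 was the lowest mock library each time and in Col-0 it lay below ABA library 1; the changes were -0.87 ± 0.26, -0.98 ± 0.27 and -0.86 ± 0.27 (adjusted p = 0.0153, 0.00858 and 0.016). Its Col-0 and vnd7 calls ended without ABA library 3 or mock library 1 or 2 of that genotype, and its vnd123 call without mock library 1 (adjusted p up to 0.0757, 0.0901 and 0.0535).

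LHCB4 encodes CP29, the linker between the photosystem II core and the trimers, and its 3 genes did not move together. LHCB4.2 (AT3G08940) measured 10.8, 9.96 and 7.10 CPM in Col-0 mock and 4.99, 6.84 and 4.26 under ABA, 9.90, 6.39 and 5.78 and 4.42, 2.32 and 3.49 in vnd123, and 7.26, 6.18 and 5.76 and 5.52, 5.15 and 3.83 in vnd7. ABA lay below mock in each genotype, and it fell with a log2 change of -0.80 ± 0.24 in Col-0 (adjusted p = 0.0143, lost without ABA library 3 or mock library 1) and with -1.09 ± 0.25 in vnd123 (0.00171), while its change in vnd7 was -0.40 ± 0.24 (adjusted p = 0.214). LHCB4.3 (AT2G40100) went from 1.42, 1.48 and 1.71 CPM in Col-0 mock to 2.25, 3.76 and 2.54 under ABA, from 1.16, 0.939 and 1.09 to 1.42, 1.83 and 1.37 in vnd123, and from 1.34, 1.31 and 1.36 to 1.66, 2.74 and 3.03 in vnd7. All ABA libraries lay above all mock libraries of their genotype, and LHCB4.3 rose by 0.89 ± 0.24 in Col-0 (adjusted p = 0.00672, lost without ABA library 2) and by 0.88 ± 0.24 in vnd7 (0.00666, lost without the 6 libraries numbered 3), with 0.53 ± 0.25 in vnd123 (0.116).

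LHCB4.1 (AT5G01530) was at 34.2, 27.7 and 26.1 CPM in Col-0 mock and 23.7, 29.9 and 22.6 under ABA, and at 28.4, 25.8 and 20.8 and 21.0, 20.6 and 17.9 in vnd7. In vnd123 it went from 27.0, 23.7 and 21.7 to 16.9, 15.2 and 15.5, where the groups were apart and it fell (log2 -0.60 ± 0.13, adjusted p = 0.00124). In vnd7 the main fit did not call LHCB4.1, but DESeq2 called it lower (log2 -0.35 ± 0.14, adjusted p = 0.032). So did a replicate block (0.0136), fitting only the groups compared (0.0403) and no filter on low counts (0.0356). LHCB5 (AT4G10340), the CP26 protein, went from 29.5, 27.8 and 22.4 to 18.8, 16.9 and 13.6 CPM in Col-0, from 24.9, 20.0 and 17.1 to 12.6, 13.9 and 8.08 in vnd123 and from 25.6, 20.8 and 14.8 to 16.8, 16.8 and 11.3 in vnd7. It fell in Col-0 (log2 -0.69 ± 0.21, adjusted p = 0.0165), where leaving out ABA library 3 or mock library 1 or 2 ended the call, and in vnd123 (log2 -0.84 ± 0.21, adjusted p = 0.00481). In vnd7 the main fit did not call LHCB5, but a replicate block called it lower (adjusted p = 0.00178). LHCB6, the CP24 protein, passed in no genotype, with changes of -0.27 ± 0.17 to -0.14 ± 0.17. The block called LHCB6 lower in vnd123 (0.0474).

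LHCB1.4 (AT2G34430), one of the 5 LHCB1 genes, rested on few reads: 7 over the 3 mock libraries and 76 over the 3 ABA libraries of Col-0. Its levels were 0.109, 0.0205 and 0.0187 CPM in Col-0 mock and 0.203, 0.892 and 0.768 under ABA, and 0.0550, 0.0649 and 0.0197 and 0.908, 0.795 and 0.513 in vnd7. In vnd123 they were 0.0387, 0.0921 and 0 and 0.333, 0.129 and 0.155. All 9 ABA libraries lay above the mock libraries of their genotype. With reads scaled to library size as for CPM, the ABA over mock ratio was 13.2 in Col-0 (95% counting interval 6.09 to 33.8). It was 5.04 in vnd123 (2.16 to 13.6, from 7 and 29 reads) and 15.6 in vnd7 (7.67 to 37.1, from 8 and 113 reads). The gene rose in Col-0 and vnd7 (adjusted p = 0.00107 and 0.000349). It did not pass in vnd123 (0.0512), where DESeq2 called it higher (0.0279). These intervals cover counting error only. No mock library exceeded 0.109 CPM, so LHCB1.4 passed the filter on low counts through ABA libraries alone. It entered the test, and the count of members that rose, only because it was high there.

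LHCB2.1 (AT2G05100) went from 2.00, 1.35 and 1.24 CPM in Col-0 mock to 3.95, 5.19 and 2.13 under ABA, from 1.45, 0.571 and 0.462 to 2.53, 1.42 and 1.47 in vnd123 and from 2.04, 1.01 and 0.413 to 4.33, 2.95 and 1.07 in vnd7. Its changes of 1.29 ± 0.51, 1.15 ± 0.55 and 1.27 ± 0.52 did not pass (adjusted p = 0.0643, 0.124 and 0.0679). The higher level was called in all 3 genotypes with the replicate number as a block (adjusted p = 0.00452, 0.011 and 0.0044), and in Col-0 with only the 2 groups compared (0.0086), with no filter on low counts (0.049) or without the 6 libraries numbered 3 (0.0235); library 1 held the highest LHCB2.1 level in 5 of the 6 groups. For LHCB2.1, 15.3% of the transcript's stretches of 75 bases are shared with LHCB2.2. LHCB1.2, with 280 reads in all, and LHCB1.3 passed in no ABA comparison.

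Of the 4 photosystem I antenna genes, 0 passed in Col-0 and vnd7 and 1 fell in vnd123 (25%, against 13.8% of all genes). In Col-0 and vnd7, 13.4% and 14.5% of all genes were called lower and 17.9% and 18.8% higher. LHCA4 (AT3G47470), with the most reads of the 4, was at 93.7, 78.9 and 59.6 CPM in Col-0 mock and 104, 99.5 and 71.4 under ABA, at 84.7, 56.2 and 49.1 and 77.0, 58.7 and 45.2 in vnd123, and at 80.9, 61.5 and 45.5 and 79.4, 83.3 and 47.6 in vnd7, overlapping each time. LHCA3 (AT1G61520) was at 30.5, 26.7 and 23.4 CPM in Col-0 mock and 24.9, 27.9 and 20.7 under ABA, 22.0, 18.1 and 18.8 and 17.2, 15.6 and 13.8 in vnd123, and 23.5, 20.9 and 17.4 and 22.1, 23.8 and 15.1 in vnd7; neither gene passed. LHCA1 (AT3G54890) went from 21.6, 18.04 and 15.6 to 15.7, 16.2 and 10.4 CPM in Col-0, from 16.0, 14.4 and 10.9 to 9.88, 8.11 and 7.59 in vnd123 and from 17.9, 14.4 and 11.6 to 13.1, 12.2 and 8.18 in vnd7. It fell in vnd123 (log2 -0.69 ± 0.21, adjusted p = 0.0143), a call ended by leaving out ABA library 3 or mock library 1. With a replicate block LHCA1 was also called lower in Col-0 and vnd7 (adjusted p = 0.00343 and 0.0037). LHCA3 was called lower in vnd123 with that block (0.0146) or with only the groups compared (0.0316).

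Duplicated genes for the same subunit did not change by the same amount. The 3 pairs below were picked after their values were seen, so their log2 ratios within each library (0.1 CPM added) are a description and were not tested. The PSBO2 over PSBO1 ratio was higher under ABA by 1.07 in Col-0, 0.81 in vnd123 and 1.00 in vnd7. LHCB4.3 over LHCB4.2 was higher by 1.61, 1.58 and 1.21, and PSAD2 over PSAD1 by 1.08, 0.81 and 0.02. A ratio shows unequal change and not which partner moved.

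**Figure D3:**
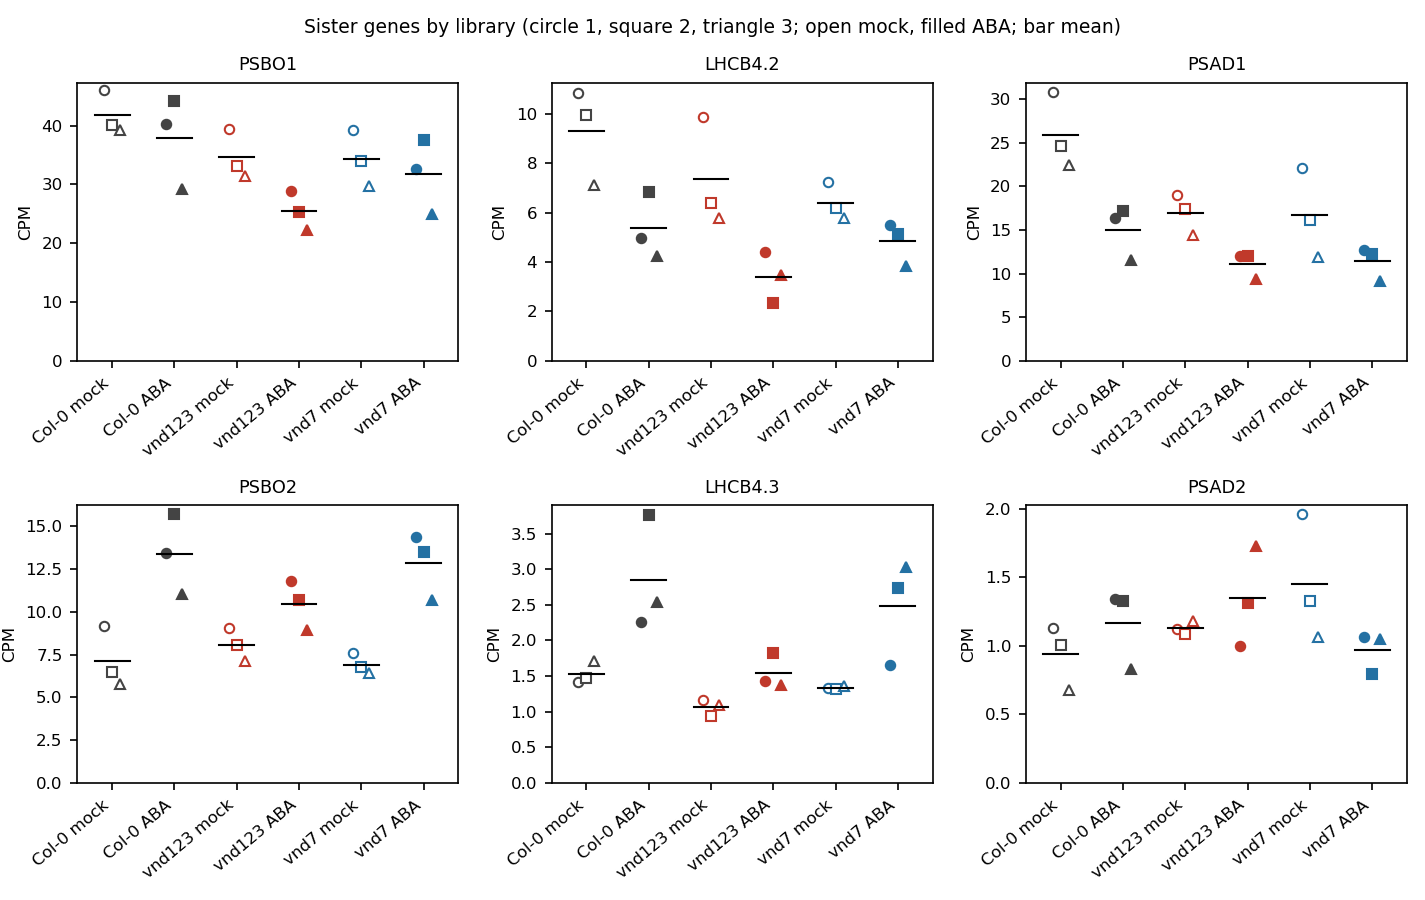
Level in CPM of 3 pairs of sister genes in every library (open symbols mock, filled symbols ABA, bars group means, symbol shape the replicate number). In Col-0, PSBO2 and LHCB4.3 lie higher under ABA while LHCB4.2 and PSAD1 lie lower, and PSBO1 overlaps between treatments.

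The triple mutant held lower levels of some members than wild type, RBCS1A among them. RBCS1A (AT1G67090), the one small-subunit gene with reads enough to test, measured 4.58, 4.08 and 4.57 CPM in the mock libraries of Col-0, 1.38, 1.71 and 1.70 in those of vnd123 and 2.55, 3.17 and 3.01 in those of vnd7. Under ABA it was at 3.14, 3.97 and 3.05, 1.76, 1.65 and 0.723 and 2.71, 2.43 and 1.62. Every vnd123 library lay below every Col-0 library under the same treatment, and the log2 difference was -1.47 ± 0.24 in mock (0.362 of the Col-0 level, adjusted p = 0.00305) and -1.28 ± 0.25 under ABA (adjusted p = 0.012), the second lost with only the groups compared (0.101), without Col-0 ABA library 2 (0.0965) and without the 6 libraries numbered 3 (0.0507). In vnd7 the differences from Col-0 were -0.60 ± 0.23 and -0.58 ± 0.24 (adjusted p = 0.947 and 0.341). Its ABA changes of -0.38 ± 0.23, -0.20 ± 0.26 and -0.36 ± 0.24 in Col-0, vnd123 and vnd7 did not pass.

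In mock, 2 of the 33 members were called in vnd123, both lower, where 0.484% of all genes were called lower. The other was LHCB1.3 (AT1G29930), the LHCB1 gene with the most reads, at 34.3, 31.5 and 31.2 CPM in the mock libraries of Col-0, 20.4, 17.1 and 18.5 in those of vnd123 and 24.6, 19.4 and 15.1 in those of vnd7. Under ABA its levels were 25.6, 33.9 and 25.0, 18.8, 17.7 and 13.2 and 24.2, 22.4 and 16.2. The vnd123 libraries did not overlap Col-0 under either treatment, and the difference was -0.79 ± 0.17 in mock (adjusted p = 0.0337) and -0.76 ± 0.17 under ABA (0.0345). The mock call ended when any one of the 6 libraries compared, or vnd7 mock library 2, was left out (up to 0.211), and the ABA call without Col-0 ABA library 1 or 2, vnd123 ABA library 2 or 3, or vnd7 ABA library 2 (up to 0.289).

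Under ABA, 7 members were called in vnd123 and all were lower (21.2%), where 0.944% of genes were called lower. Beside RBCS1A and LHCB1.3 these were LHCA2, LHCB4.1, PSAL, PSBW and PSBX. PSBW (AT2G30570), which stabilises photosystem II and antenna supercomplexes, measured 10.5, 9.92 and 8.60 CPM in Col-0 ABA, 4.22, 5.80 and 5.91 in vnd123 ABA and 7.85, 8.02 and 6.58 in vnd7 ABA. In mock it was at 9.94, 9.22 and 8.84, 6.43, 5.60 and 6.70 and 6.60, 6.14 and 4.66. It differed by log2 -0.87 ± 0.15, adjusted p = 0.00328 under ABA, a call that held in all alternatives run, and by -0.58 ± 0.14 in mock (adjusted p = 0.0945).

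LHCA2 (AT3G61470) measured 3.67, 4.84 and 3.40 CPM in Col-0 ABA, 2.16, 1.52 and 2.12 in vnd123 ABA and 3.19, 3.31 and 1.92 in vnd7 ABA, and 4.45, 4.41 and 3.58, 3.002, 1.95 and 2.07 and 2.42, 2.56 and 1.83 in the mock groups. It was lower in vnd123 under ABA (log2 -1.03 ± 0.24, adjusted p = 0.0361). PSAL, LHCB4.1 and PSBX, with levels given above, were lower there, with log2 differences of -1.35 ± 0.29, -0.68 ± 0.13 and -0.59 ± 0.12 (adjusted p = 0.0238, 0.0109 and 0.0204). The count of 7 fell to 1 without Col-0 ABA library 2 and to 3 without Col-0 ABA library 1, rose to 12 without Col-0 ABA library 3, and was 4, 2 and 2 without vnd123 ABA library 1, 2 or 3. Except for PSBW, each of the 7 calls was lost in at least 1 of these.

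Direction was more widely shared than calls. In vnd123, 31 of 33 members had a negative difference from Col-0 in mock (median -0.36, against -0.00661 over all genes) and 31 under ABA (median -0.60, against -0.000593). Libraries did not overlap, with vnd123 lower, for 11 members in mock and 18 under ABA, against 7.44% and 8.10% of all genes, and for 0 members with vnd123 higher, against 5.52% and 5.67%. In vnd7, 31 of 33 were negative in mock (median -0.33) and 29 under ABA (median -0.29), but edgeR called 0 members under either treatment, where 0.0671% and 0.163% of genes were called. The vnd7 libraries did not overlap Col-0 for 8 members in mock, all lower, against 5.69% of genes lower and 4.80% higher, and under ABA for 7 lower and 1 higher, against 7.83% and 7.48%. At an unadjusted p under 0.05 there were 12 members in vnd7 mock (36.4%, against 4.87% of all genes) and 6 under ABA (18.2%, against 12.8%). DESeq2 called 2 members of 38 genes in mock and 0 of 159 under ABA. Both mutants are compared with the same Col-0 libraries, so these counts are not independent of each other. Members also moved together by library: library 3 was the lowest of its group for 20 to 29 of the 33. Their signs are therefore not separate observations.

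**Figure D4:**
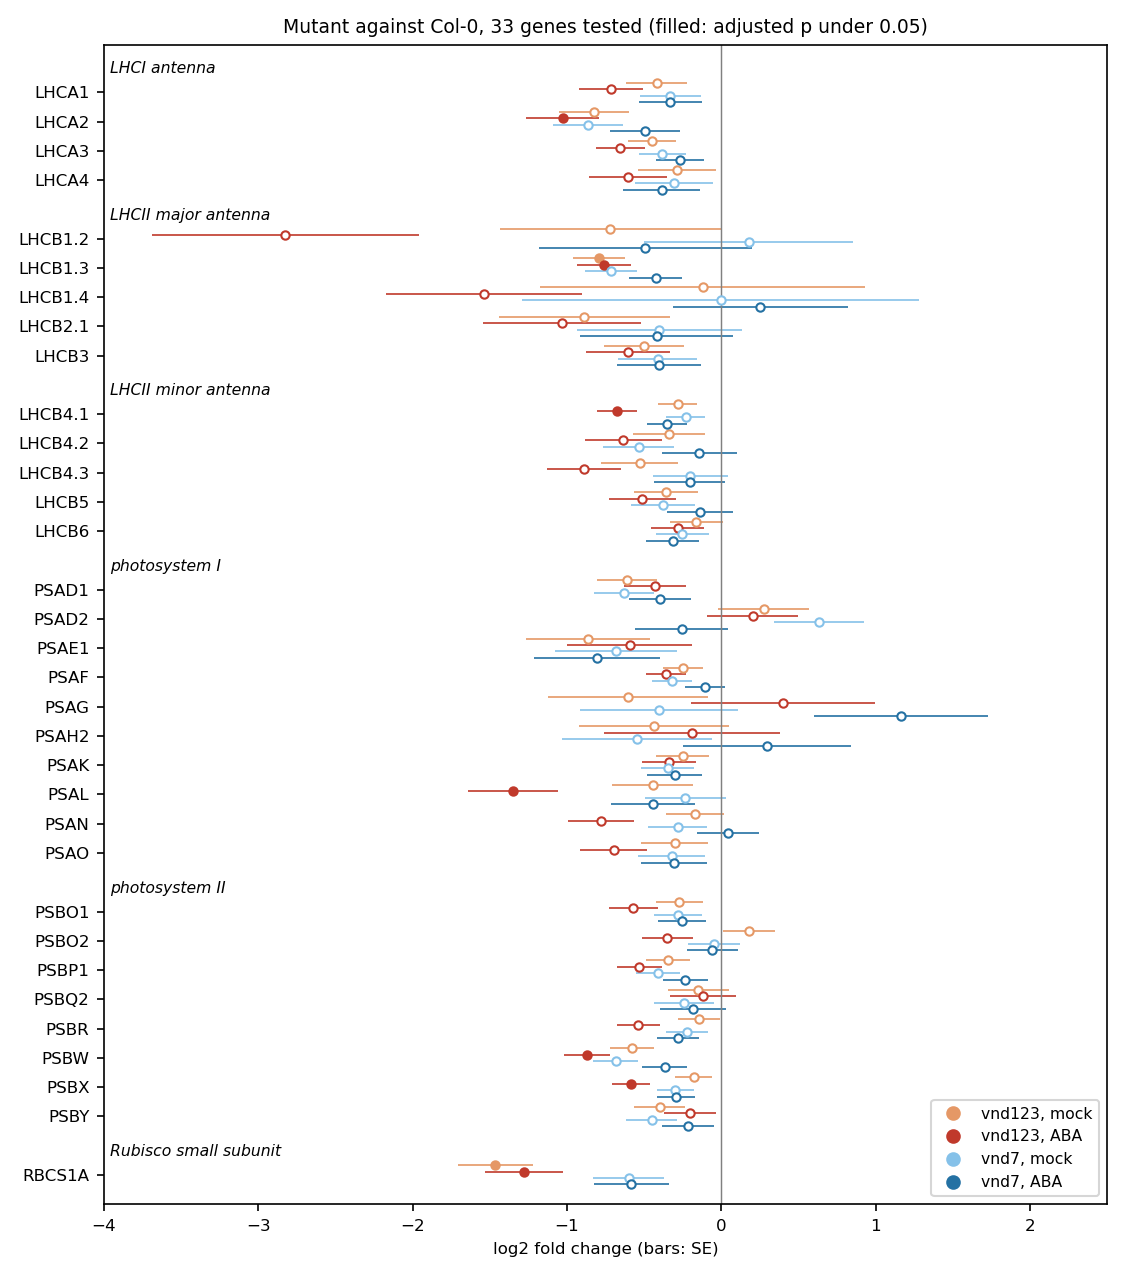
Log2 difference from Col-0 for the 33 tested members in each mutant and treatment (bars SE, filled points adjusted p under 0.05). Nearly all points lie left of 0, and the filled ones belong to vnd123, from RBCS1A in mock at -1.47 to PSBX under ABA at -0.59.

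Whether a mutation altered the ABA response was tested directly. The difference of the vnd123 from the Col-0 response passed for 0 members and 0% of genes in edgeR (lowest adjusted p among members 1), and DESeq2 called 0 members. At an unadjusted p under 0.05 there were 5 members, all negative (15.2%, against 3.58% of all genes), and 25 of the 33 differences were negative. These counts too are over members that moved together by library. These differences ran from -2.11 to 1.00 with a median of -0.20, against 0.00115 over all genes, and a median SE of 0.29. For vnd7 the test also called 0 members and 0% of genes (lowest adjusted p 0.997, 0 by DESeq2), with differences of -0.89 to 1.56. Their median was 0.02, against 0.00287 over all genes, and 1 member was under 0.05 unadjusted (3.03%, against 4% of all genes). Over all genes, 748 and 835 had an unadjusted p under 0.05. The larger count of decreases in vnd123 is therefore not shown to be a different response.

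Genes of the surrounding pathways are read here against the share of all genes called under ABA, which was 13.4% lower and 17.9% higher in Col-0, 13.8% and 18.6% in vnd123, and 14.5% and 18.8% in vnd7. Chlorophyll synthesis supplies the pigment that the antenna proteins need, and 7 of its 16 tested genes fell in Col-0 under ABA (43.8%), 6 in vnd123 (37.5%) and 4 in vnd7 (25.0%), with 0 higher. PORB, a protochlorophyllide reductase, went from 8.39, 7.78 and 6.99 CPM to 3.17, 3.35 and 3.38 in Col-0 and fell with a log2 change of -1.22 ± 0.14 (adjusted p = 1.1e-06). CRD1, a cyclase subunit, fell with a log2 change of -0.85 ± 0.12 (2.07e-05), CHLM, a methyltransferase, with -0.97 ± 0.15 (5.01e-05), and CHLH, a magnesium chelatase subunit, with -0.72 ± 0.15 (0.00108). CHLH passed in vnd123 and not in vnd7.

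Among 16 tested regulators of greening, 7 fell (43.8%) and 3 rose (18.8%) in Col-0 and again in vnd123, and 5 fell (31.2%) and 3 rose in vnd7; the share that rose was close to that of all genes. GLK2, a transcription factor that activates antenna and chlorophyll genes, measured 24.3, 17.6 and 13.6 CPM in Col-0 mock and 7.27, 8.65 and 5.55 under ABA, and fell (log2 -1.37 ± 0.24, adjusted p = 0.000129). The changes of GLK2 were -1.41 ± 0.24 in vnd123 and -0.96 ± 0.23 in vnd7 (0.000108 and 0.00297). GNC, a GATA factor that promotes greening, had 201 reads in the 3 Col-0 mock libraries and 11 under ABA, a ratio of 0.0664 (0.0326 to 0.121), and ratios of 0.0608 in vnd123 and 0.0587 in vnd7. PIF3, a bHLH repressor of greening in the dark, rose from 3.75, 3.31 and 3.80 to 17.6, 14.2 and 12.0 CPM (log2 2.01 ± 0.14, adjusted p = 1.57e-09), and by 2.35 ± 0.15 and 2.51 ± 0.15 in the mutants. HYH, a bZIP relative of HY5, fell with a log2 change of -0.78 ± 0.12 in Col-0 (3.46e-05), and GUN1, a plastid-to-nucleus signalling protein, rose by 0.59 ± 0.10 (0.000113). None of these 16 genes was called between a mutant and Col-0 under either treatment.

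**Figure D5:**
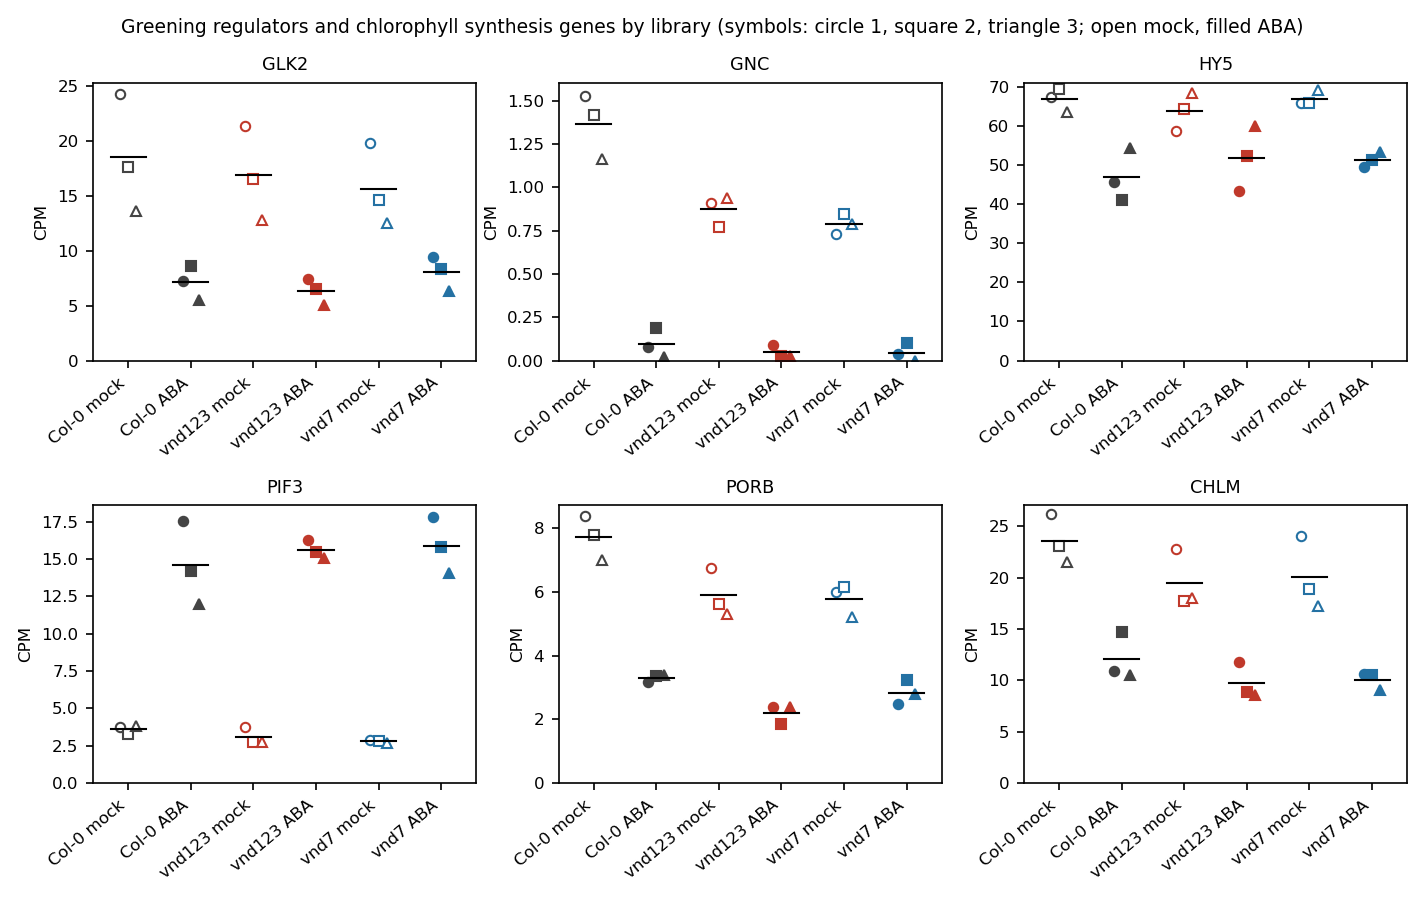
Level in CPM of 4 greening regulators and 2 chlorophyll synthesis genes in every library (open symbols mock, filled symbols ABA, bars group means, symbol shape the replicate number). In each genotype GLK2, GNC, PORB and CHLM lie lower under ABA and PIF3 higher, with no overlap between treatments, while HY5 overlaps in vnd123.

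Of 12 electron transport and ATP synthase genes, 3 fell in Col-0 (25.0%), 5 in vnd123 (41.7%) and 2 in vnd7 (16.7%, near the share of all genes), and 0 rose. PETE2, a plastocyanin, fell with a log2 change of -1.04 ± 0.16 in Col-0 (adjusted p = 2.72e-05), PETC, the Rieske protein, with -0.56 ± 0.16 (0.0118) and FD1, a ferredoxin, with -0.27 ± 0.09 (0.0338); in vnd123 ATPC1 fell with a log2 change of -0.88 ± 0.20 (0.00167). Of 10 tested further antenna and photosystem genes, 3 fell in Col-0 (30.0%), 6 in vnd123 (60.0%) and 2 in vnd7 (20.0%), led by PSBS, the sensor of energy-dependent quenching, with -1.42 ± 0.18, -1.43 ± 0.19 and -1.06 ± 0.19 (adjusted p = 4.91e-06, 7.04e-06 and 0.000138). Of 13 tested Calvin cycle genes, 3 fell (23.1%) and 1 rose (7.69%) in Col-0, 4 (30.8%) and 1 in vnd123, and 2 (15.4%, near the share of all genes) and 1 in vnd7; the share that rose was below that of all genes. FBA2, a plastid aldolase, had 132 reads in Col-0 mock and 14 under ABA (ratio 0.129, 0.0684 to 0.224), and in vnd7 92 and 0, at least 27.7-fold lower against a floor of 3 reads over the group. RPE, an epimerase, rose by 0.27 ± 0.08 in Col-0 (0.0113).

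Between vnd123 and Col-0 under ABA, PSAE2, the other PSAE gene (-0.91 ± 0.16, adjusted p = 0.00508) and CP12-1, a regulator of Calvin cycle enzymes (-0.72 ± 0.14, 0.0119), were lower. No other gene of the chlorophyll, regulator, electron transport, Calvin cycle or plastid-encoded lists was called between a mutant and Col-0. The plastid-encoded photosynthesis genes, which are transcribed inside the organelle, gave 0 called of 5 tested in any comparison, with median ABA changes of 0.05, 0.17 and 0.74 in Col-0, vnd123 and vnd7, but sums of only 1.104 to 3.298 CPM. The library method is not stated to keep transcripts without a poly(A) tail.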

How the data were processed

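Read counts per gene of 18 root RNA libraries were used as deposited; the authors made these counts from paired reads of 150 bases with HISAT2 and HTSeq, per the submitters' processing notes, which give no versions, and the library kit does not mark strand, per the labels' protocols. The genome build is not given in the sources used here. From the counts, edgeR 4.0.16 in R 4.3.3 (filterByExpr, TMM scaling, quasi-likelihood fit of 6 groups over all 18 libraries, Benjamini-Hochberg adjustment, threshold 0.05) tested 20869 genes in 9 comparisons. CPM used the TMM-scaled library sizes, of 38325491 to 58705802 reads before scaling. The fit was tested on simulated data. Alternatives were DESeq2 1.42.0, unscaled sizes, no filter, only the groups compared, summed gene copies, a replicate block and leaving out libraries. Genes were named by their rank in adjusted p within each complex or list, by read number, and, for the ratios of sister genes, after their values were seen. The members and lists were chosen with earlier results of these data known. Sequences and overlaps came from RefSeq TAIR10.1 by locus code.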

Additional observations from a re-analysis of the deposited data

How the results depend on the processing

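Counts of members called kept within 1.5 times of the main count except as follows. DESeq2 called 4 members for vnd123 against Col-0 in mock and 15 under ABA, and 2 for vnd7 against Col-0 in mock. A replicate block gave 16 for ABA in vnd7, 5 and 17 for vnd123 against Col-0 in mock and under ABA, and 2 for vnd7 against Col-0 in mock. Over all genes that block called 7097, 135, 337 and 17 in these comparisons. The replicate numbers were not taken as pairs: same-numbered libraries of different groups correlated at -0.0956 to 0.202 (median 0.0103), and 9 of 18 libraries correlated best with their own number. Over the members alone the median was 0.134 (lowest -0.44), with 23 of 45 such pairs over 0.1. Leaving out 1 library at a time gave 8 to 14 members for ABA in Col-0, 11 to 16 in vnd123 and 6 to 14 in vnd7, 1 to 2 and 1 to 12 for vnd123 against Col-0 in mock and under ABA, and 0 for vnd7 against Col-0 and for both differences of response. Leaving out the 6 libraries numbered 3, chosen after seeing the data, gave 2 and 10 for vnd123 against Col-0. Over all genes it gave 75 and 182. No called member changed direction under any alternative run. Over all genes, DESeq2 called 235 and 407 for vnd123 against Col-0 in mock and under ABA (edgeR 127 and 227), 38 and 159 for vnd7 (14 and 34) and 6 for the vnd123 difference of response (0). Fitting only the groups compared called 56 genes for vnd7 under ABA and 1 for the vnd123 difference of response, and leaving out the libraries numbered 3 called 75 for vnd123 in mock; the causes were not tested. Few reads limit LHCB1.4 (240 in all), LHCB1.2 (280), PSAG (309) and PSAH2 (440).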
